A study of Mus musculus with 12 samples.

Results

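The dimmest EGFP-positive cells sorted from mouse liver, called sub here after the gate that the labels name sublow, were compared with EGFP-negative liver cells, called neg. Both populations came from C57Bl/6 mice carrying the Sox9EGFP transgene, a reporter that puts green fluorescent protein under the control of Sox9, so the transgene was shared by all groups. The mice were fasted for 16 h, livers were digested to single cells, and each library was made from 12000 cells collected by fluorescence-activated sorting. The labels give no age, sex, gate limits or number of animals. The series holds 4 such populations, neg, sub and the brighter gates low and high, with 3 libraries each. The comparison used the 6 sub and neg libraries of the 12 and every gene whose normalised counts averaged 10 or more across those 12, which was 16128 of 54227 symbols. These genes carried 99.9% of the summed values, and 33571 of the remaining symbols were at 0 in every library. The description centres on genes beyond the usual biliary, hepatocyte and endothelial markers.

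Sox9 is a transcription factor made by the epithelial cells that line bile ducts and, at lower levels, by hepatocytes beside the portal tract. Duct cells form a polarised sheet: they are joined by cadherins, desmosomes and tight junctions, carry a primary cilium that senses flow, and move salts and water into bile. The liver cells that lack Sox9 include sinusoidal endothelial cells, which clear macromolecules from blood and send Wnt and R-spondin signals to hepatocytes, and stellate cells, which store vitamin A and deposit matrix. A sorted gate is a mixture in bulk, so fewer cells of a type and less RNA per cell cannot be told apart in any of these values.

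Libraries held 8775387 to 15535588 reads in neg and 9872316 to 15251585 in sub, with 9087 to 11207 and 9039 to 10691 genes detected. Log2 values of sub libraries correlated at 0.526 to 0.535 with each other, those of neg at 0.536 to 0.56, and sub with neg at 0.479 to 0.514 (Pearson's r across genes, which are no replicates). Sox9, as the check on the labels, stood at 0.691, 0 and 0 in neg replicates 1, 2 and 3 and 6653, 4237 and 3707 in sub. The mitochondrial ribosomal RNAs took 2.097 to 2.784% of the signal in neg and 4.978 to 5.515% in sub. The endothelial marker list summed to 166507 to 219702 in neg and 42471 to 58007 in sub, with 12 of 14 markers lower in every sub library than in any neg library, against 4.99% of all genes tested and 10.3% of those with more than 3 reads in all 6 libraries. Limma called 0 of the 14 at an adjusted p under 0.05, with 2 at an unadjusted p under 0.05, edgeR called 4 lower and DESeq2 0. Over all genes edgeR called 0.254% lower and DESeq2 5.23%. Stellate and mesenchymal markers summed to 26891 to 45858 and 33071 to 45941, and hepatocyte markers to 395 to 1543 and 8424 to 11535. Biliary markers summed to 713 to 1320.3 in neg and 21331 to 43447 in sub, and 8 of the 15 were called higher, against 1.04% of all genes. The part of these mixtures and of the mitochondrial share in the gene differences below was not tested.

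By limma, more genes were called higher than lower in sub, a balance that DESeq2 did not share. At a limma adjusted p under 0.05, with Benjamini-Hochberg adjustment over all 16128 genes, 168 genes were higher in sub, which is 1.04% of the genes tested, and 24 were lower, which is 0.149%, or 1.19% in either direction. Of the 168 rises, 74 had at most 3 reads in every neg library, 48 had more than 3 reads in all 6 libraries, and 46 lay between. Of the 24 falls, 16 had at most 3 reads in every sub library and 5 had more than 3 reads in all 6. In all 192 called genes the sub and neg libraries did not overlap; over all genes tested, every sub library lay above every neg library in 4.69% and below in 4.99%. The median of all tested genes' log2 fold changes was 0. Among the called genes, 158 rises and 24 falls lay outside the 3 standard marker lists, and 119 rises belonged to none of the 29 gene lists examined.

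**Figure D1:**
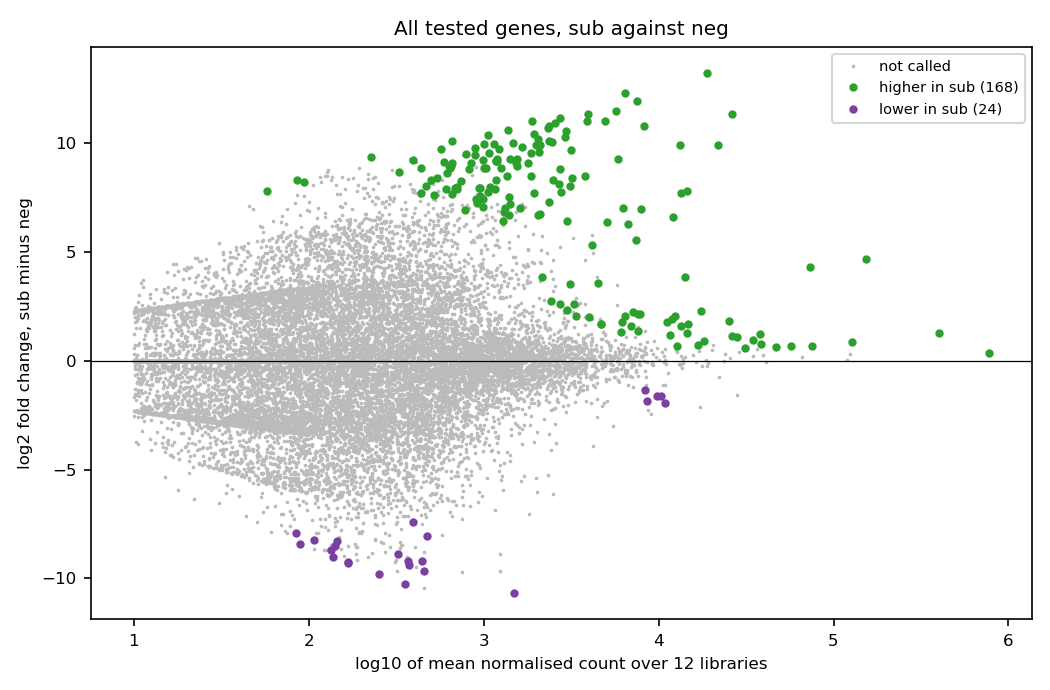
Each point is 1 of the 16128 tested genes, with the log10 of its mean normalised count over 12 libraries on the x axis and its log2 fold change, sub minus neg, from limma on the y axis. The 168 genes called higher in sub (green) lie mostly at large fold changes, and the 24 called lower (purple) fall into a group near the floor and 5 abundant genes.

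The calls borrow their estimate of spread from all 12 libraries. A limma fit of the 6 sub and neg libraries alone called 0 genes in either direction, with 928 genes at an unadjusted p under 0.05, whereas edgeR on the recovered reads of 10 libraries called 214 higher (1.33%) and 41 lower (0.254%), and DESeq2 808 (5.01%) and 844 (5.23%). Of the 168 rises, 100 were kept in all 6 fits that leave out 1 sub or neg library, and of the 24 falls 17 were. With no variance trend, 92 of the 168 rises and 18 of the 24 falls were called. With the replicate number as a block, 158 and 14 were. The labels number the libraries, and their descriptions carry 3 identifiers that each recur in all 4 populations; the labels do not say what these identifiers mark or that the libraries came from separate animals, so the p-values measure the spread between these libraries, which may be technical.

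The largest rises outside the marker lists were above 1000 in every sub library and, except for 1 neg library of Krt8, at or near 0 in neg. Pkhd1, which encodes fibrocystin, a membrane protein of the primary cilium mutated in recessive polycystic kidney and liver disease, was 0 in all 3 neg libraries; its sub libraries read 6179, 5720.0 and 3754. Eppk1, which encodes epiplakin, a plakin that binds keratin filaments, was at 0 in all 3 neg libraries and 7278, 1368 and 2350.0 in sub. In neither gene did the libraries overlap. Taking 3 reads per library as the floor of neg, the sub mean was at least 1422-fold higher for Pkhd1 (chr1:20057779-20618064 of GRCm38, minus strand) and at least 999-fold for Eppk1, or 507-fold without sub replicate 1. Their log2 fold changes on the scale of log2(normalised count + 1) were 12.32 ± 0.78 (SE, adjusted p = 7.92e-09) and 11.48 ± 0.94 (adjusted p = 2.86e-07). On this scale a change from 0 depends on the added 1 and is no bound.

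Krt8, which encodes keratin 8, the type II keratin of simple epithelia, was at 0.691, 0 and 133 in neg and 16648, 15117 and 15713 in sub, so the sub libraries lay within a narrow range and 1 neg library held some signal. Its annotated pseudogene Krt8-ps shares 98.618% identity over 941 bases, so reads between the copies are uncertain. Krt18, its type I partner, was at 390.4, 0 and 0.966 in neg and 10410.3, 10498 and 6227 in sub (log2 fold change 9.91 ± 1.33, adjusted p = 0.000192); its adjusted p was 0.05 without sub replicate 1. Scara3, a scavenger receptor-like protein, stood at 0 in all 3 neg libraries and 4159, 1881 and 2209 in sub, at least 749.5-fold higher. Wwc1, which encodes KIBRA, an upstream scaffold of the Hippo kinases, stood at 0 in all 3 neg libraries and 2616, 2321 and 1979 in sub, at least 628-fold higher. None of these sub values overlapped the neg values.

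Retreg1, a receptor for the autophagy of endoplasmic reticulum, was at 0 in all 3 neg libraries and 2083, 3066 and 1477 in sub (adjusted p = 1.77e-05). Ptprf, a receptor tyrosine phosphatase at cell contacts, was at 0, 0 and 0.966 in neg and 2869, 2512 and 2539 in sub (adjusted p = 3.59e-07). Myh14, the heavy chain of non-muscle myosin IIC, was at 0.691, 1.22 and 0 in neg and 4573, 2009 and 3794 in sub (adjusted p = 1.1e-07). The 3 genes thus went from no more than a few reads to between 2209 and 3459 normalised counts on average. Mtcl1, which links microtubules to cell polarity, reached 3700.3, 1017 and 1552 in sub from 0 in all 3 neg libraries (adjusted p = 8.84e-06). Every one of the 10 largest rises was kept in all 6 fits leaving out 1 sub or neg library.

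**Figure D2:**
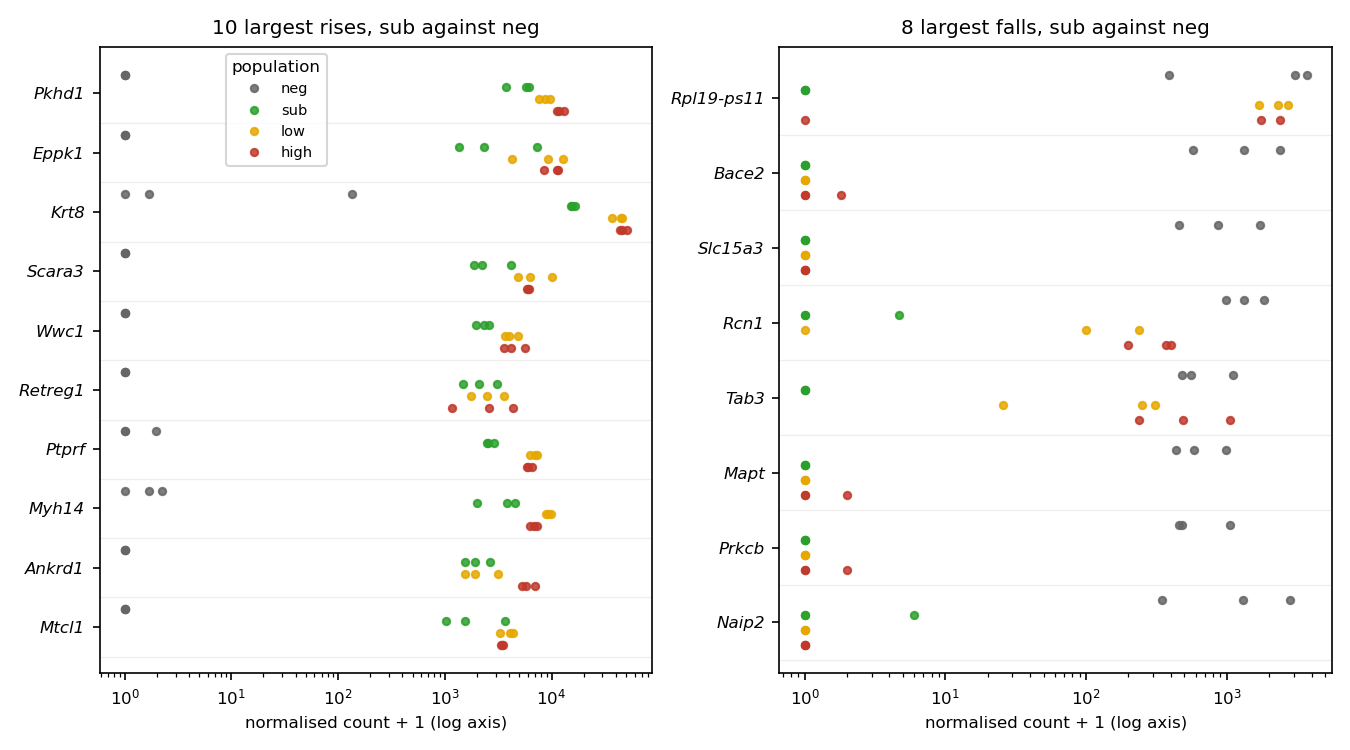
Normalised count + 1 on a log axis in every library, 3 per population, for the 10 largest rises (left) and the 8 largest falls (right) outside the marker lists. Rises have at most 1 read in each neg library, except Krt8 at 133 in 1 library, and above 1000 in sub, and all 8 falls are at 0 in at least 2 sub libraries.

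Many other rises belonged to no list. Named after their values were seen, these included Clu, which encodes the secreted chaperone clusterin, at 70.5, 1.22 and 19.3 in neg and 16471, 11936 and 15138 in sub (log2 fold change 9.93 ± 0.75, adjusted p = 8.47e-08). Chka, the choline kinase that starts phosphatidylcholine synthesis, was at 4723, 6115 and 4178 in neg and 18126, 17166 and 17084 in sub (log2 fold change 1.82 ± 0.14, adjusted p = 8.29e-08). Slc2a2, the glucose transporter GLUT2, was at 0.691, 0 and 0 in neg and 1903, 1520.4 and 1569 in sub (adjusted p = 1.78e-05). With no variance trend Chka had an adjusted p of 0.573. These 3 differ in their background: Chka was abundant in both populations, whereas Clu and Slc2a2 were nearly absent from neg. Rbm47, an RNA-binding protein, rose from 0 in all 3 neg libraries to 1332, 1342 and 2101 (adjusted p = 7.51e-05), and Shank2, a scaffold protein, from 136, 0 and 0.966 to 6309, 3336 and 3145 (adjusted p = 0.00014). Dcdc2a, a doublecortin-domain protein of cilia whose human counterpart is mutated in neonatal sclerosing cholangitis, was at 155, 41.6 and 0.966 in neg and 3743, 4434 and 1779 in sub (adjusted p = 0.00048, and 0.0548 without sub replicate 1).

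Further rises outside the lists, also named after their values were seen, varied in how firmly they were called. Rab27b, a small GTPase of secretory vesicles, was at 72.5, 1.22 and 1.93 in neg and 4513, 3005 and 1388 in sub (adjusted p = 0.000188), and Myo5c, a myosin that carries secretory granules, at 0 in all 3 neg libraries and 357, 1727 and 390.0 (adjusted p = 0.000877). Pigr, the receptor that carries IgA across epithelia into bile, was at 96.7, 0 and 108 in neg and 2244, 5591 and 478 in sub (adjusted p = 0.0138). The Pigr libraries did not overlap, but its call was lost in 5 of the 6 fits leaving out 1 library, all but the one without neg replicate 2, with an adjusted p of up to 0.253. Klf5, a Krüppel-like factor of epithelia, was at 0 in all 3 neg libraries and 2829, 255 and 220.4 in sub (adjusted p = 0.000992), with sub replicate 1 far above the others. Met, the receptor of hepatocyte growth factor, was at 0, 0 and 29 in neg and 515, 1899 and 409 in sub (adjusted p = 0.00871, and 0.0553 without sub replicate 2). Erbb3, a receptor of neuregulins, was at 67, 0 and 0 in neg and 385, 589.6 and 469.8 in sub (adjusted p = 0.031); its call was kept in 1 of those 6 fits, the one without neg replicate 1.

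Where all 6 libraries held more than 3 reads, a fold change does not rest on a floor. Of the 3749 genes of this kind, 48 rose, which is 1.28%, and 5 fell, which is 0.133%; the sub libraries lay wholly above neg in 7.36% of them and wholly below in 10.3%. The largest rise was Sorbs2, an adaptor between actin and adhesion sites, at 60.1, 88.1 and 289 in neg and 7656, 5926 and 3812 in sub, a ratio of means of 39.8, or 78.3 without neg replicate 3 (log2 fold change 5.58 ± 0.50, adjusted p = 1.02e-06). Prox1, a homeobox factor of hepatocytes and lymphatic endothelium, was at 1038, 72.2 and 5.79 in neg, with neg replicate 1 far above the others, and 2089, 2768 and 5768 in sub (adjusted p = 0.0185). The Prox1 call was kept in 1 of the 6 fits that leave out 1 library, the one without neg replicate 1, and its adjusted p reached 0.295 without sub replicate 3. Ppl, which encodes periplakin of desmosomes, was at 182, 2037 and 1101 in neg and 18227, 13945 and 5121 in sub (log2 fold change 3.88 ± 0.58, adjusted p = 0.00063, and 0.106 without sub replicate 1; it was also lost without sub replicate 2).

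Atp13a3, a P-type ATPase that transports polyamines, was at 257, 58.7 and 127 in neg and 1285, 1749 and 2757 in sub (ratio of means 13.1, or 20.8 without neg replicate 1, adjusted p = 0.00711), and this call was kept in all 6 fits leaving out 1 library but not with no variance trend (adjusted p = 0.132). Kifc3, a minus-end kinesin found at adherens junctions, was at 172, 373 and 360.2 in neg and 2573, 1441 and 1877 in sub (adjusted p = 0.0268, and 0.0607 without sub replicate 1). In both genes the lowest sub library was several times the highest neg library. Fat1, an atypical cadherin, was at 446, 788 and 31.9 in neg and 4851, 2321 and 1738 in sub (adjusted p = 0.0322), and Fgfr3, a fibroblast growth factor receptor, at 837, 46.5 and 379.6 and 2352, 4727 and 2089.7 (adjusted p = 0.0268). The calls of Fat1 and Fgfr3 were each lost without any 1 of the sub libraries, and without neg replicate 1 for Fat1 and neg replicate 3 for Fgfr3, with adjusted p values of up to 0.315 and 0.246. Tacc2, a centrosomal protein, was at 687, 775 and 194 in neg and 3383, 3119.9 and 2258 in sub (adjusted p = 0.0227); without sub replicate 1 its adjusted p was 0.0939, and the call was also lost without sub replicate 2. With no variance trend, and by limma on the 10 libraries of the count tests, Prox1, Ppl, Atp13a3, Kifc3, Fat1, Fgfr3 and Tacc2 were not called.

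**Figure D3:**
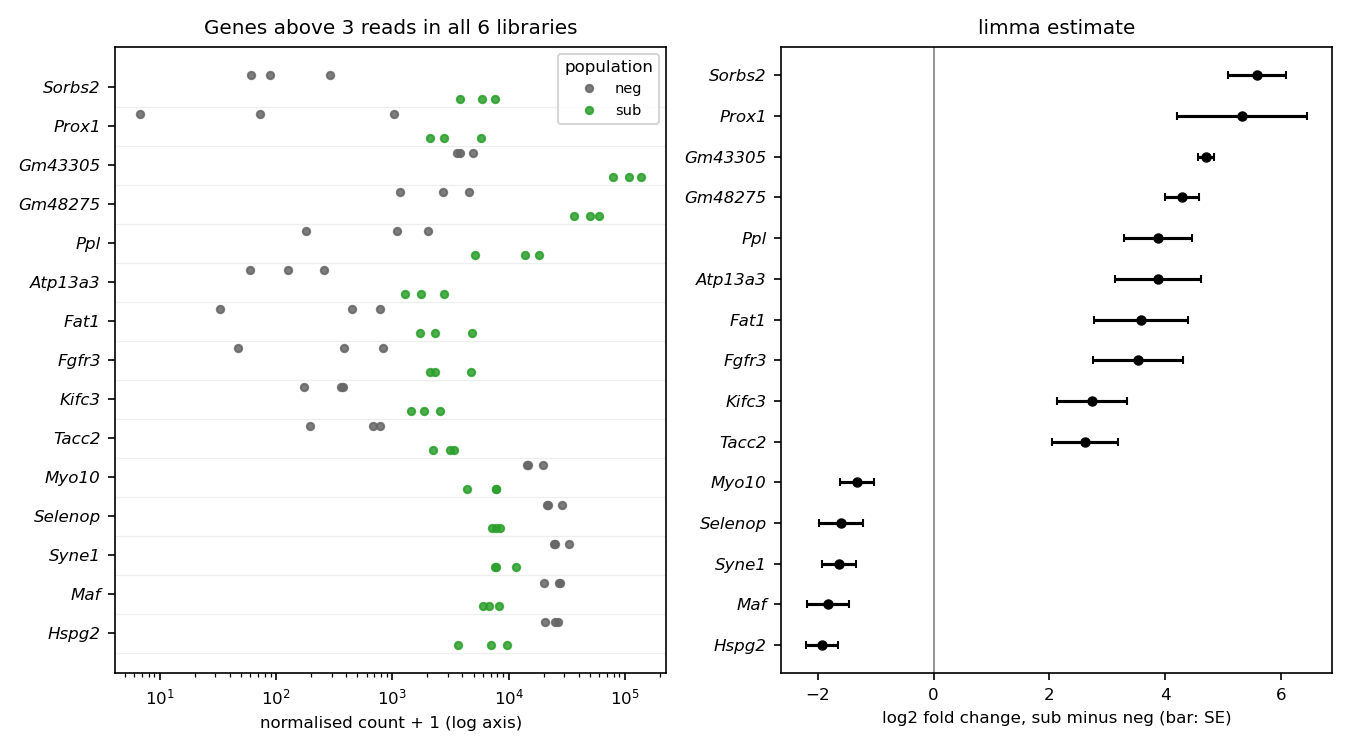
Left, normalised count + 1 on a log axis in the 3 neg and 3 sub libraries for the 10 largest rises and the 5 falls among genes with more than 3 reads in all 6 libraries; right, their limma log2 fold changes, sub minus neg, with SE as bars. Gm43305 and Gm48275 have the smallest errors among the rises, and the 5 falls lie between -1.32 and -1.92.

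Some abundant genes in no list rose by a few fold. Myh9, the heavy chain of non-muscle myosin IIA, was at 16387, 14016 and 19289 in neg and 29302, 36445 and 39097 in sub (log2 fold change 1.08 ± 0.14, adjusted p = 9.19e-05). Ahnak, a giant scaffold below the plasma membrane, was at 21939, 24613 and 25333 in neg and 42913, 52621 and 43337 in sub (log2 fold change 0.95 ± 0.09, adjusted p = 4.1e-06). Lmna, which encodes lamin A and C of the nuclear envelope, was at 1221, 2825 and 1589.7 in neg and 5824, 10474 and 6650.1 in sub (log2 fold change 2.07 ± 0.35, adjusted p = 0.00194). The 3 genes, named after their values were seen, were each without overlap and were kept in all 6 fits leaving out 1 library. In a fit with no variance trend their adjusted p values were 0.75, 0.766 and 0.525. DESeq2 on 10 libraries called Lmna (adjusted p = 0.0228) but not Myh9 or Ahnak (0.283 and 0.227).

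Among the most abundant rises were 2 annotated transcripts of no known function. Gm43305 (chr14:54292443-54297456 of GRCm38, minus strand, a processed transcript in GENCODE M21) was at 3832, 4973 and 3567 in neg and 137761, 109329.9 and 79717 in sub, a ratio of means of 26.4 (log2 fold change 4.70 ± 0.14, adjusted p = 4.05e-14). Gm48275 (chr10:50425044-50425330, minus strand, a lincRNA) was at 1169, 2713 and 4597 in neg and 60376, 50381 and 36382 in sub (log2 fold change 4.30 ± 0.29, adjusted p = 1.98e-08). Gm42031 (chr8:85125872-85132289, minus strand, a lincRNA) was at 0 in all 3 neg libraries and 707, 2062 and 654 in sub (adjusted p = 0.00014). They are not independent: Gm48275 is 98.955% identical to Gm43305 over 287 bases, and Gm42031 98.663% over 748 bases, so reads could have been split between them and each value is uncertain. Summed over Gm48275, Gm43305 and a further close copy, Gm42428, the level was 6950.2 ± 1705 in neg and 157983 ± 41048 in sub (SD, n = 3), a ratio of 22.73. With the more distant copies AI506816, Chd9, Gm42031 and Gm42427 added, the ratio was 16.56. Both abundant transcripts rose further in the low gate, where Gm43305 stood at 257001, 300809 and 231677 (log2 fold change low minus sub 1.30 ± 0.14, adjusted p = 0.000145). The rise of Gm43305 was kept in all 6 fits leaving out 1 library, and so was that of Gm48275, whose adjusted p was 0.0624 with no variance trend.

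Genes of epithelial contacts were the list with the most calls. In the list of epithelial junction, polarity and splicing genes, 9 of 28 tested members were called higher and 0 lower. Over all genes these shares were 1.04% and 0.149%. The list's median log2 fold change was 5.67, against 0 over all genes. Of the 28, 18 were at the floor in neg alone and 1 in both populations. Cdh1, E-cadherin of adherens junctions, was at 1.38, 1.22 and 0.966 in neg and 7884, 2118 and 3635 in sub, a rise of at least 1239-fold, or 784-fold without sub replicate 1 (adjusted p = 1.34e-08). Ocln, occludin of tight junctions, was at 0, 0 and 0.966 in neg and 1047, 504 and 884 in sub (adjusted p = 0.000349), and Lsr, which recruits tricellulin to tricellular contacts, at 0 in all 3 neg libraries and 1799, 658 and 881 (adjusted p = 0.000449). Pard6b, a subunit of the Par polarity complex, was at 0 in all 3 neg libraries and 546, 883 and 456 in sub (adjusted p = 0.00151). In each of these the lowest sub library stood above 400 while neg held no more than 3 reads per library.

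The desmosomal plaque protein desmoplakin, Dsp, was at 109, 1.22 and 301 in neg and 12492, 9506 and 5744 in sub (log2 fold change 7.71 ± 1.06, adjusted p = 0.00024, and 0.0614 without sub replicate 1). Dsg2, the desmosomal cadherin desmoglein 2, named after its values were seen, was at 0.691, 339 and 103 in neg and 11338, 8586 and 6795 in sub (adjusted p = 0.000405); without any 1 of the sub libraries its call was lost, with an adjusted p of up to 0.0765. Dsp was not called with no variance trend (adjusted p = 0.0507). Both were more abundant than the tight junction genes in sub but were not absent from neg. Cxadr, an adhesion receptor at tight junctions, was at 294, 0 and 166 in neg and 4115, 7791 and 3079 in sub (adjusted p = 0.00572), and St14, the protease matriptase, at 0, 0 and 480.0 and 1932, 840.4 and 982 (adjusted p = 0.0467). These calls are weak: St14 kept its call in 1 of the 6 fits leaving out 1 library, the one without neg replicate 3, and Cxadr in 2, those without neg replicate 1 or 2, with adjusted p values of up to 0.327 and 0.199. Esrp1, the epithelial splicing regulator, was at 0 in all 3 neg libraries and 53.8, 223 and 11 in sub and did not pass the test (adjusted p = 0.342).

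Transcription factors of liver epithelium gave 7 of 24 tested members higher, against 1.04% of all genes, and 0 lower, with a median log2 fold change of 2.78. Glis3, a Krüppel-like zinc finger factor whose loss causes cystic kidneys, was at 0 in all 3 neg libraries and 1994, 1083 and 2125 in sub, a rise of at least 473-fold (adjusted p = 1.25e-05). Ehf, an ETS factor of epithelia, was at 0 in all 3 neg libraries and 1030.3, 1710.5 and 926 in sub (adjusted p = 3.31e-05). Both factors were unread in neg and were kept in all 6 fits leaving out 1 library. Onecut2, a paralogue of the duct regulator HNF6, was at 0 in all 3 neg libraries and 2869, 433 and 458 in sub (adjusted p = 6.64e-05), with sub replicate 1 several times above the others. Sox4, by contrast, was present in neg at 942, 2039 and 925 and reached 5182, 3271 and 9584 in sub (log2 fold change 2.17 ± 0.38, adjusted p = 0.00369). The Sox4 call was lost without neg replicate 1, neg replicate 3, sub replicate 1 or sub replicate 3, with an adjusted p of up to 0.0818. Sox9 and Prox1 were also among the 7.

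Among genes of the primary cilium and of polycystic disease, Pkhd1 and Glis3 were called higher of 19 tested members, against 1.04% of all genes, and none lower, with a median log2 fold change of 1.25, and 6 of the 19 were wholly above neg, against 4.69% of all genes. Among those that did not pass, Pkd2, the cation channel polycystin 2, was at 794, 901 and 128 in neg and 1928, 3124 and 2814 in sub (adjusted p = 0.123). Dync2h1, the motor of retrograde transport in cilia, was at 86.4, 0 and 454 and 2628, 2778 and 1384 (adjusted p = 0.0754). Cys1, the ciliary protein cystin, was at 0 in all 3 neg libraries and 143, 19.5 and 444 in sub (adjusted p = 0.164). In all 3 the populations did not overlap, with a wide spread within sub for Cys1.

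Salt and water transport genes gave 3 of 17 tested members higher, against 1.04% of all genes tested, and 0 lower, with a median log2 fold change of 1.83. Slc5a1, the sodium-glucose cotransporter SGLT1, was at 0 in all 3 neg libraries and 916, 1041 and 1066 in sub, within a narrow range (adjusted p = 0.00024). Atp1b1, a beta subunit of the sodium-potassium ATPase, was at 0, 56.3 and 0 in neg and 1739, 3223 and 927 in sub (log2 fold change 8.81 ± 1.31, adjusted p = 0.000548). Both calls were kept in the 6 fits leaving out 1 library. Slc4a4, a sodium-bicarbonate cotransporter, was at 620.4, 358 and 267 in neg and 3503, 690.4 and 1114 in sub (adjusted p = 0.35), and Aqp1, a water channel also made by sinusoidal endothelium, went the other way at 10004, 10017 and 5823 and 2327, 3746 and 2441 (adjusted p = 0.821). Neither passed the test.

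Immediate early genes, which are switched on within minutes of a stimulus and during tissue dissociation, were already abundant in neg, and some rose further in sub. Of 23 tested members, 6 were called higher and 0 lower, with a median log2 fold change of 0.67, and 12 lay wholly above neg and 2 wholly below. Of the 23, 21 had more than 3 reads in all 6 libraries; among all such genes 1.28% were called higher, 7.36% lay wholly above neg and 10.3% wholly below. Atf3, a stress-induced factor of the ATF family, was at 2688, 2404 and 2049 in neg and 16279.5, 8384 and 11786 in sub, a ratio of means of 5.1 (log2 fold change 2.31 ± 0.20, adjusted p = 7.96e-07). Fosb, a subunit of the AP-1 dimer, was at 15229.7, 11057 and 16372 in neg and 37995, 27271 and 35252 in sub (log2 fold change 1.24 ± 0.13, adjusted p = 8.33e-06), and its partner Jun at 24240.5, 18204 and 19501 and 34749, 30245 and 42327 (log2 fold change 0.79 ± 0.11, adjusted p = 0.00024). Atf3 thus separated by several fold and Jun by less than 2-fold, with no overlap in either. DESeq2 on 10 libraries did not call Fosb, Jun or Fos (adjusted p = 0.155, 0.602 and 0.285).

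Fos was at 12796, 8147 and 14310.4 in neg and 28021, 21106 and 27519.9 in sub (log2 fold change 1.15 ± 0.17, adjusted p = 0.00058, and 0.0749 without sub replicate 1; it was also lost without sub replicate 3). Klf6, a Krüppel-like factor induced by injury, was at 981, 1206 and 893 in neg and 7618, 2750.1 and 5435 in sub (log2 fold change 2.25 ± 0.34, adjusted p = 0.000744). Maff, a small Maf factor without an activation domain, was at 10.4, 0 and 57.9 in neg and 541, 899 and 1589.9 in sub (adjusted p = 0.0155), and its call was lost without any 1 of the sub libraries, with an adjusted p of up to 0.0923. Others did not pass the test. Egr1 was at 26170.2, 30822 and 31568 in neg and 34447, 33431 and 39529 in sub, above neg without overlap (adjusted p = 0.363). Klf4 and Klf2, flow-responsive factors of endothelium, were below neg: Klf4 was at 17279.6, 13018 and 14291 and 9126, 6836 and 10540.1 (adjusted p = 0.443) and Klf2 at 4006, 2311 and 2486 and 1919, 1677 and 1243 (adjusted p = 0.756), with no overlap. With no variance trend 0 members of this list were called by limma at adjusted p under 0.05, while leaving out 1 sub or neg library left between 4 and 6 called.

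The promoters of Fos, Fosb, Atf3 and Maff are shown because these genes rose together and their windows hold the short element that CREB and ATF proteins are known to bind. Each is the 250 bases before an annotated start, from RefSeq (GRCm38.p6), 5′ to 3′ on the gene's strand. Capitals mark the short site TGACG or its reverse complement and, in Maff, the full palindrome TGACGTCA, which holds the short site on both strands.
Fos (chr12:85473640-85473889, plus strand): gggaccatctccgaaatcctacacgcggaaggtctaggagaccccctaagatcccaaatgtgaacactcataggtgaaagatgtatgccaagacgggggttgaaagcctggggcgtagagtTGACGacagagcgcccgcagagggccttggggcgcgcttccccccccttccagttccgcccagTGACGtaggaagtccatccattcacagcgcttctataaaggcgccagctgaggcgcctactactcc
Fosb (chr7:19310046-19310295, minus strand): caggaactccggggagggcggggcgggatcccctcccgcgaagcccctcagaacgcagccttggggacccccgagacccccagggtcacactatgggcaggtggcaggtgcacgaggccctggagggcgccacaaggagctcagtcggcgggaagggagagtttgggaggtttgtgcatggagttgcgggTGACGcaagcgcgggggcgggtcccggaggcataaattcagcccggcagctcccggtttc
Atf3 (chr1:191183334-191183583, minus strand): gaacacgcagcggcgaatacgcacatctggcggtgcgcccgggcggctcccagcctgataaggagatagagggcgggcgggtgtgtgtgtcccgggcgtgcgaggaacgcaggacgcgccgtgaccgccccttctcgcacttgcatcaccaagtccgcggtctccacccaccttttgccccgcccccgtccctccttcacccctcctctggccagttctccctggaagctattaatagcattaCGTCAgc
Maff (chr15:79347270-79347519, plus strand): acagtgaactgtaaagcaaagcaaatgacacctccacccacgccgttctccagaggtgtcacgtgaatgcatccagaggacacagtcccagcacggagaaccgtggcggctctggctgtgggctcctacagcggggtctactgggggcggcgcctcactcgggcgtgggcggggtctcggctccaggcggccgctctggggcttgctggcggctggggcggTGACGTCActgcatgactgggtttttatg
In Fos the short sites lie 129 and 66 bases before the start, in Fosb 60 bases before, in Atf3 7 bases before, and in Maff the palindrome begins 29 bases before. Maff has 3 annotated windows, of which the one printed holds the palindrome. Searched on both strands, the short site was in 17.8% of all 32851 promoter windows and 17.9% of the 162 windows of genes called higher, and the palindrome in 1.55% and 3.7%, the latter being 6 of 162 windows. The AP-1 site TGANTCA was in 6.75% of all windows and 7.41% of those of genes called higher. The windows of Jun and Klf6 hold none of these letters exactly. A match describes letters in a window, and no binding was measured.

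In the list of Hippo pathway genes and targets of its nuclear arm, YAP and TEAD, 2 of 27 tested members were called higher, against 1.04% of all genes, and 0 lower; the list's median log2 fold change was 0.77. Ankrd1, an ankyrin-repeat protein induced by YAP, was at 0 in all 3 neg libraries and 1548, 2664 and 1901 in sub, at least 555-fold higher (log2 fold change 10.96 ± 1.12, adjusted p = 6.29e-06). It was at 1901, 1548 and 3162 in low and 5305, 5721 and 7026 in high. The sub and low libraries thus overlapped, and the high libraries lay above both. Ccn1, the other called member, encodes a matricellular protein and was expressed in neg too, at 3495, 1589 and 2749.7, against 8453, 8307 and 11587 in sub (adjusted p = 0.000357). Ccn1 was not called with no variance trend (adjusted p = 0.568), by DESeq2 (0.0661) or by limma on the 10 libraries of the count tests. Other members did not pass: Ccn2, a close relative of Ccn1, was at 3522, 2278 and 1849.5 in neg and 4072, 4973 and 3627 in sub (adjusted p = 0.958). Amotl1, an angiomotin that binds YAP, was below neg, at 5715, 6317 and 6718 and 912, 3105 and 3712 (adjusted p = 0.446). Tead4, a DNA-binding partner of YAP, was at 0 in all 3 neg libraries, at 183, 306 and 574 in sub and at 0 in all 3 low libraries (adjusted p = 0.156 for sub against neg).

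The windows before Ankrd1 and Ccn1 are shown because both hold the hexamer GGAATG, the core that TEAD factors are known to bind, in capitals here, or its reverse complement. They are from RefSeq (GRCm38.p6), 5′ to 3′ on the gene's strand.
Ankrd1 (chr19:36119845-36120094, minus strand): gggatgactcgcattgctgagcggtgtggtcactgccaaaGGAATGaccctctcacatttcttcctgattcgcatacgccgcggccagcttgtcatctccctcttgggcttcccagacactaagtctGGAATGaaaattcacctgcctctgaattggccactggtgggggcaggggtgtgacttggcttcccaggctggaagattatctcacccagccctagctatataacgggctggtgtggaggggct
Ccn1 (chr3:145649986-145650235, minus strand): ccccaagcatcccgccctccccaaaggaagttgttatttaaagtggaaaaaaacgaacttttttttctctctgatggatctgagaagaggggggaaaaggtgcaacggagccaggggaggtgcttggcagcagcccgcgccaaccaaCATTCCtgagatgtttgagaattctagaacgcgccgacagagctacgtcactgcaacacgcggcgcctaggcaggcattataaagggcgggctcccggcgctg
The hexamer lies 210 and 123 bases before the start of Ankrd1, and its reverse complement 103 bases before that of Ccn1. It was in 12.6% of all promoter windows and in 12.3% of those of genes called higher, so its share was close to that of all promoters.

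In the Notch pathway only Notch2, the receptor needed for bile duct formation, passed the test, 1 of 15 tested members against 1.04% of all genes, with a median log2 fold change of 0.05. It was at 25.6, 0 and 505 in neg and 2346, 2862 and 1298 in sub (adjusted p = 0.0229), and this call was kept in 1 of the 6 fits leaving out 1 library, the one without neg replicate 3, with an adjusted p of up to 0.255, and lost with no variance trend (0.219). Jag1, the ligand whose human gene is mutated in Alagille syndrome, was at 184, 931 and 1025 in neg and 1069, 2569 and 3843 in sub (adjusted p = 0.543). The target Hes1 was at 1068, 1471 and 1227 and 2704, 412 and 1912 (adjusted p = 1), overlapping. The endothelial receptor Notch4 and the ligand Dll4 were at 854, 0 and 1599 and 1906, 1715 and 3751 in neg and at 632, 337 and 518 and 1638, 1384 and 1483 in sub.

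Matrix and adhesion genes divided by member rather than moving as a list. In the collagen, laminin and integrin list 3 of 36 tested members were called higher, against 1.04% of all genes, or 1.28% of those read in all 6 libraries, and 0 lower, the median log2 fold change was 0.02, and the summed level was 85289 ± 8874 in neg and 84187 ± 13287 in sub (SD, n = 3). Itgb8, the integrin subunit that activates latent TGF-beta, was at 0, 1.22 and 0 in neg and 248, 71 and 670.3 in sub (adjusted p = 0.0216). Col18a1, the basement membrane collagen that releases endostatin, was at 685, 641 and 769.8 in neg and 3805, 3529 and 3376 in sub (log2 fold change 2.35 ± 0.48, adjusted p = 0.015), with a narrow range in both and no call with no variance trend (0.428). In the opposite direction, without passing the test, the basement membrane chains Col4a1 at 13654, 13533 and 17173 in neg and 7748, 8498 and 11595 in sub (adjusted p = 0.665) and Lamb1 at 1694, 1534 and 1578 and 9.58, 292 and 1358 (adjusted p = 0.711) did not overlap.

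Fibronectin, Fn1, was at 3931, 3754 and 1871 in neg and 12638, 10695 and 14597 in sub, a ratio of means of 3.97 (log2 fold change 2.05 ± 0.25, adjusted p = 6.25e-05), and was kept in all 6 fits leaving out 1 library but not with no variance trend (adjusted p = 0.516). Thbs1, thrombospondin 1, was at 2413, 1721 and 1338 in neg and 8376, 4548 and 5119 in sub (log2 fold change 1.71 ± 0.39, adjusted p = 0.031); its call held in 1 of those fits, the one without neg replicate 1, its adjusted p reached 0.157, and DESeq2 gave it 0.0665. They were the 2 called of 19 tested members of the IGF axis and matricellular list, against 1.04% of all genes; the list's median log2 fold change was -0.01. Igfbp3, the main carrier of IGF in blood, was at 1156, 5107 and 3518 in neg, 5875, 6497 and 10796 in sub and 0, 0.85 and 0 in low, so sub lay wholly above both neighbours (adjusted p = 0.833 for sub against neg). Igfbp7, an endothelial relative, was at 5615, 3331 and 3331 in neg and 646, 2410.0 and 1978 in sub (adjusted p = 0.799).

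Plasma proteins made by hepatocytes gave 5 of 27 tested members higher, against 1.04% of all genes tested, and 0 lower, with a median log2 fold change of 2.81. Ahsg, fetuin A, was at 0.691, 0 and 0 in neg and 938, 1286 and 1643 in sub, a rise of at least 351-fold (adjusted p = 1.77e-05). It was the 1 member kept in all 6 fits leaving out 1 library. Apob, the structural protein of low-density lipoprotein, was at 64.9, 0 and 0 in neg and 839, 526 and 283 in sub (adjusted p = 0.0464, up to 0.155 in those fits), and Itih2, a hyaluronan-linking chain, at 0, 607 and 0 and 1423, 1287 and 1365 (adjusted p = 0.0341, up to 0.331). Ambp, the precursor of bikunin, was at 147, 0 and 0.966 in neg and 766, 677 and 369 in sub (adjusted p = 0.0464, up to 0.206). Apoe, a lipoprotein ligand also made outside hepatocytes, was at 13912, 12389 and 9118 in neg and 23338, 17952 and 17917 in sub (log2 fold change 0.75 ± 0.16, adjusted p = 0.0211, up to 0.196). Of these fits, Ambp, Apob and Apoe kept their calls only without neg replicate 1, and Itih2 only without neg replicate 2. Apob was not called with the replicate number as a block. EdgeR did not call Apob, Itih2, Ambp or Apoe (adjusted p = 0.187, 0.0614, 0.0585 and 0.17). Of the 27, 11 were at the floor in neg alone, 3 in sub alone and 2 in both. Among members that did not pass, the vitamin D carrier Gc was at 0 in all 3 neg libraries and 50.9, 0 and 0 in sub, and fibrinogen gamma, Fgg, at 0 in all 3 neg libraries and 577, 0 and 20.9 in sub. Rbp4, the retinol carrier, was at 0 in all 3 neg libraries, 697, 505 and 119 in sub and 52.7, 0 and 0 in low (adjusted p = 0.136 for sub against neg). The hepatocyte marker list stood higher in sub as well, at 1023 ± 582 in neg and 9894 ± 1562 in sub (SD, n = 3), and its part was not tested.

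Some mitochondrially encoded RNAs rose. Of 12 tested messenger RNAs 3 were called higher, against 1.04% of all genes and 1.28% of those read in all 6 libraries, and 0 lower, with a median log2 fold change of 0.57. The complex I subunit mt-Nd5 was at 8762, 3767 and 6281 in neg and 16754, 14546 and 11763 in sub (ratio of means 2.29, adjusted p = 0.00495). The cytochrome oxidase subunit mt-Co1 was at 48205, 32622 and 30384 and 61276, 62616 and 49603 (log2 fold change 0.66 ± 0.13, adjusted p = 0.0106), and cytochrome b, mt-Cytb, at 7916, 9155 and 9049 and 14923, 14022 and 13158 (log2 fold change 0.69 ± 0.16, adjusted p = 0.0378). The large ribosomal RNA mt-Rnr2 moved with them, at 211914, 155118 and 185152 in neg and 464563, 469337 and 399061 in sub (log2 fold change 1.28 ± 0.08, adjusted p = 7.92e-09). Each of the 3 messenger RNAs lost its call whichever sub library was left out, and mt-Nd5 also without neg replicate 3, mt-Co1 without neg replicate 2 or 3, and mt-Cytb without neg replicate 1 or 3. Over the 6 fits leaving out 1 sub or neg library their adjusted p values reached 0.152, 0.284 and 0.122, whereas mt-Rnr2 kept its call in all 6; with no variance trend mt-Rnr2 had an adjusted p of 0.708. DESeq2 did not call the 3 messenger RNAs (adjusted p = 0.171, 0.565 and 0.488) or mt-Rnr2 (0.0676), and edgeR did not call mt-Cytb (0.479). mt-Co3 went the other way, at 968, 960.0 and 745 in neg and 599.9, 174 and 345 in sub (adjusted p = 0.669).

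The nuclear-encoded subunits of the respiratory chain gave no call by limma, with 0 of 64 tested members called in either direction. At an unadjusted p under 0.05 by limma were 4, against 1539 of all 16128 genes. EdgeR called 0. DESeq2 called 1 higher and 7 lower, against 5.01% and 5.23% of all genes. The list's median log2 fold change was 0.00, and it summed to 11868 ± 1762 in neg and 12919 ± 594 in sub (SD, n = 3). The nuclear-retained non-coding RNAs Malat1 and Neat1 were the 2 called of 15 tested members of the list of nuclear long non-coding RNAs, against 1.04% of all genes. Malat1 was at 580042, 693361 and 742716 in neg and 839996, 893865 and 812179.6 in sub (log2 fold change 0.34 ± 0.07, adjusted p = 0.0117), the smallest called rise among genes read in all 6 libraries. Neat1, the scaffold of paraspeckles, was at 35819, 59822 and 42746 and 69415, 86261 and 65727 (log2 fold change 0.70 ± 0.14, adjusted p = 0.0109). The call of Malat1 was lost in every fit leaving out 1 sub or neg library (adjusted p of up to 0.303), and that of Neat1 in all but the one without neg replicate 2 (up to 0.304). The cytosolic chaperone Hsp90ab1, at 43149, 26068 and 32172 and 60669, 49932 and 44409.8 (log2 fold change 0.63 ± 0.13, adjusted p = 0.0141), was the 1 called of 15 tested heat shock genes, a list again set against 1.04% of all genes, and kept its call only without neg replicate 1 (up to 0.297). DESeq2 called none of Malat1, Neat1 and Hsp90ab1 (adjusted p = 0.916, 0.553 and 0.589).

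The 24 falls divided into 5 genes read in all 6 libraries, 16 at the floor in sub and 3 between, which were Rcn1, Naip2 and Atp6v1b2. The 5 that were read in all 6 libraries were abundant in neg and roughly 2 to 4 times lower in sub. Hspg2, perlecan, a heparan sulfate proteoglycan of basement membranes, was at 24899.6, 26419 and 20659 in neg and 7000.4, 3675 and 9696 in sub (log2 fold change -1.92 ± 0.28, adjusted p = 0.000406). Maf, a factor of the sinusoidal endothelial and macrophage programmes, was at 27243, 20269 and 27449 and 8293, 6062 and 6754 (log2 fold change -1.83 ± 0.36, adjusted p = 0.0107). Syne1, nesprin 1 of the nuclear envelope, was at 25056, 33371 and 24588 and 7833, 11564 and 7662 (log2 fold change -1.63 ± 0.29, adjusted p = 0.00442). These 3 did not overlap and were kept in all 6 fits leaving out 1 sub or neg library, and with no variance trend their adjusted p values were 0.568, 0.577 and 0.658.

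Selenop, the selenium carrier of plasma, was at 28575, 21719.7 and 21427 in neg and 7867, 7181 and 8431 in sub (log2 fold change -1.60 ± 0.37, adjusted p = 0.0378). Myo10, the myosin of filopodia, was at 14363, 19702 and 14753 and 7834, 4388 and 7819 (log2 fold change -1.32 ± 0.30, adjusted p = 0.0293). Both lost their calls in every fit leaving out 1 sub or neg library, with adjusted p values of up to 0.311 and 0.214, although neither overlapped. DESeq2 did not call Syne1, Selenop or Myo10 (adjusted p = 0.0542, 0.0993 and 0.14), and edgeR did not call Myo10 (0.106). The endothelial marker list stood lower in sub too and summed to 191022 ± 26841 in neg and 50436 ± 7776 in sub (SD, n = 3). Its part in these falls was not tested.

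Most other falls were of genes at the floor in sub. Bace2, the protease beta-secretase 2, was at 577, 2368 and 1317 in neg and 0 in all 3 sub libraries (adjusted p = 0.0135). Slc15a3, a lysosomal peptide transporter, was at 458, 863 and 1715 in neg and 0 in all 3 sub libraries (adjusted p = 0.0161); the annotation has Tmem132a overlapping it on the other strand. Mapt, the microtubule protein tau, was at 587, 432 and 979 and 0 in all 3 sub libraries (adjusted p = 0.0227), and Prkcb, protein kinase C beta, at 1056, 483 and 459 and 0 in all 3 sub libraries (adjusted p = 0.0229). All 4 were kept in the 6 fits leaving out 1 library. With every sub value at 0, sub added no spread to these fits, so a kept call is weak support. EdgeR on 10 libraries did not call the 4 genes, with adjusted p values of 0.0934, 0.319, 0.586 and 0.582.

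Tab3, an adaptor of the kinase TAK1, was at 551, 1112 and 476 in neg and 0 in all 3 sub libraries (adjusted p = 0.0185), and unlike the preceding 4 it was read again in low, at 308, 24.6 and 249. Rcn1, a calcium-binding protein of the endoplasmic reticulum, was at 1833, 1324 and 993 in neg and 3.68, 0 and 0 in sub (adjusted p = 0.0413), and lost its call in all 6 fits leaving out 1 library (up to 0.103). EdgeR did not call Tab3 or Rcn1 (adjusted p = 0.24 and 0.175). Naip2, an inflammasome sensor of bacterial secretion systems, was at 1309, 2793 and 344 in neg and 0, 0 and 4.99 in sub (adjusted p = 0.0383, and 0.0576 without sub replicate 2); with the replicate number as a block, and by edgeR (0.0724), it was not called. Its neighbour Naip1 is 95.921% identical over 662 bases, and the sum of both was 1609.5 ± 1227 in neg and 2.65 ± 2.51 in sub. By library the sum was 1691, 2793 and 344 in neg, the same as Naip2 alone in replicates 2 and 3. The summed fall was thus mainly that of Naip2. The largest fall by log2 fold change, Rpl19-ps11, is a pseudogene 99.831% identical to the ribosomal gene Rpl19 over 591 bases: summed over its copies, the level was 4265 ± 878 in neg and 3783 ± 2273 in sub, and which copy the reads came from is uncertain. Rpl19-ps11 (adjusted p = 0.0255) also lost its call in all 6 fits leaving out 1 library, with values of up to 0.201. The called rise of Mfap1b (adjusted p = 0.0391, kept only without neg replicate 3 and up to 0.417 otherwise) is uncertain in the same way: its sum with the copy Mfap1a had a ratio, sub over neg, of 0.7635.

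Genes of the sinusoidal endothelium were lower in sub as a list, with no single member past the threshold in the fit of all 12 libraries. Of 21 tested scavenger and angiocrine genes 0 were called in either direction by limma, with 5 at an unadjusted p under 0.05, 15 were wholly below neg, against 4.99% of all genes tested, and the median log2 fold change was -2.46. Of the same 21, edgeR on 10 libraries called 5 lower and DESeq2 1, against 0.254% and 5.23% of all genes. Each fit leaving out 1 sub or neg library called 1 or 2 lower. The angiocrine signals had the smallest p: Wnt2, which sustains the pericentral programme, was at 389.7, 404 and 39.6 in neg and 0 in all 3 sub libraries (adjusted p = 0.0658). Rspo3, which amplifies Wnt signalling, was at 3063, 4053 and 7613 in neg and 0, 0 and 179.5 in sub (adjusted p = 0.0719). Wnt2 was called lower in 5 of the 6 fits leaving out 1 sub or neg library, all but the one without sub replicate 2, with the smallest value, 0.00127, without neg replicate 3; edgeR gave it 0.687 and DESeq2 0.0562. Rspo3 was called lower without sub replicate 3, which the count tests also leave out, and had adjusted p values of 3.74e-10 by edgeR and 8.13e-11 by DESeq2. Wnt9b was at 453, 1095 and 608 and 0, 242 and 0 (adjusted p = 0.317), and Bmp2, the endothelial signal for hepcidin, at 8476, 8605 and 7370.1 and 1192, 12.6 and 626 (adjusted p = 0.356). Of these 4, Bmp2 alone was read in every sub library.

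The scavenger receptors remained well read in sub. Stab1 was at 17503, 20196 and 9939 in neg and 3364, 3829.7 and 6038 in sub (adjusted p = 0.703), and the mannose receptor Mrc1 at 17394, 17674 and 10969 and 4902, 3210.3 and 3790.3 (adjusted p = 0.753). F8, clotting factor VIII, was at 14369, 13944 and 9517 and 2495, 2837 and 4669 (adjusted p = 0.74). None of the 3 overlapped. The whole list summed to 137553 ± 20564 in neg, 32346 ± 512 in sub and 2625 ± 1246 in low (SD, n = 3). Every sub library lay between the neg and the low libraries.

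Stellate and mesenchymal genes differed in direction between members, and 10 of 15 had a higher and 5 a lower mean in sub. Limma called 0 in either direction, with 0 at an unadjusted p under 0.05, edgeR and DESeq2 called 0 as well, and the median log2 fold change was 0.33. The smallest p values were those of Lrat, which esterifies vitamin A for storage, at 24.9, 1085 and 266 in neg and 73, 0 and 68.8 in sub (adjusted p = 0.703), and of Hand2, a factor of stellate cells, at 644, 0 and 950.4 and 1722, 287 and 1205 (adjusted p = 0.719), both overlapping. Reln, reelin, a stellate cell glycoprotein, was at 3244, 4104 and 3426 in neg and 4288, 8510.1 and 5201 in sub (adjusted p = 0.875), and Des, desmin, at 915, 1180.2 and 1228 and 1409.8, 1962 and 2537 (adjusted p = 0.998), both without overlap. Rgs5, a pericyte regulator of G proteins, was at 363, 967 and 1157 and 2496, 1417 and 1436 (adjusted p = 0.753). Pdgfrb, the receptor of mesenchymal cells, was at 429, 1499 and 3085 and 2602, 1954 and 3487, and Col1a2 was below neg, at 4467, 5204 and 6864 and 3613, 2918 and 3866 (adjusted p = 0.815). In low the same list summed to 1054 to 3064.

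Limma called 0 members, in either direction, of the lists for antigen presentation by MHC class I (20 tested, median log2 fold change 0.08), interferon-inducible GTPases (20, 0.04), chemokines and cytokines (17, 0.74), proliferation (10, -1.96) and cytosolic ribosomal proteins (85, 0.21). At an unadjusted p under 0.05 these lists had 0, 1, 0, 0 and 8 members. EdgeR called 1 ribosomal protein gene lower and none in the other 4 lists. DESeq2 called 2 ribosomal protein genes higher and 6 lower, 1 chemokine or cytokine gene each way and 1 proliferation gene higher. Over all genes edgeR called 1.33% higher and 0.254% lower, and DESeq2 5.01% and 5.23%. The GTPases showed a step beyond sub: they summed to 38384 to 55641 in neg, 34397 to 45055 in sub and 3481 to 7288 in low. Iigp1, a GTPase that attacks parasite vacuoles, was at 14549, 12834 and 14979.7, 8363, 9110.1 and 11713 and 533, 432 and 1173 in these. Of the blood cell lists, erythroid and platelet markers summed to 3099 to 7145 in neg and 2795 to 8661 in sub, overlapping. Lymphocyte markers summed to 215 to 1819.8 in neg and 33.9 to 436 in sub, and the leukocyte antigen Ptprc was at 0 in all 6 libraries. Kupffer cell and macrophage markers summed to 0 to 1007 and 490.0 to 587, and limma called 0 of 5 tested. Of the 2 with the smallest limma p, Csf1r (limma adjusted p = 0.558) was called by edgeR (0.0412) and DESeq2 (1.97e-17). Clec4f (0.753) was called by neither (0.687 and 0.229).

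**Figure D4:**
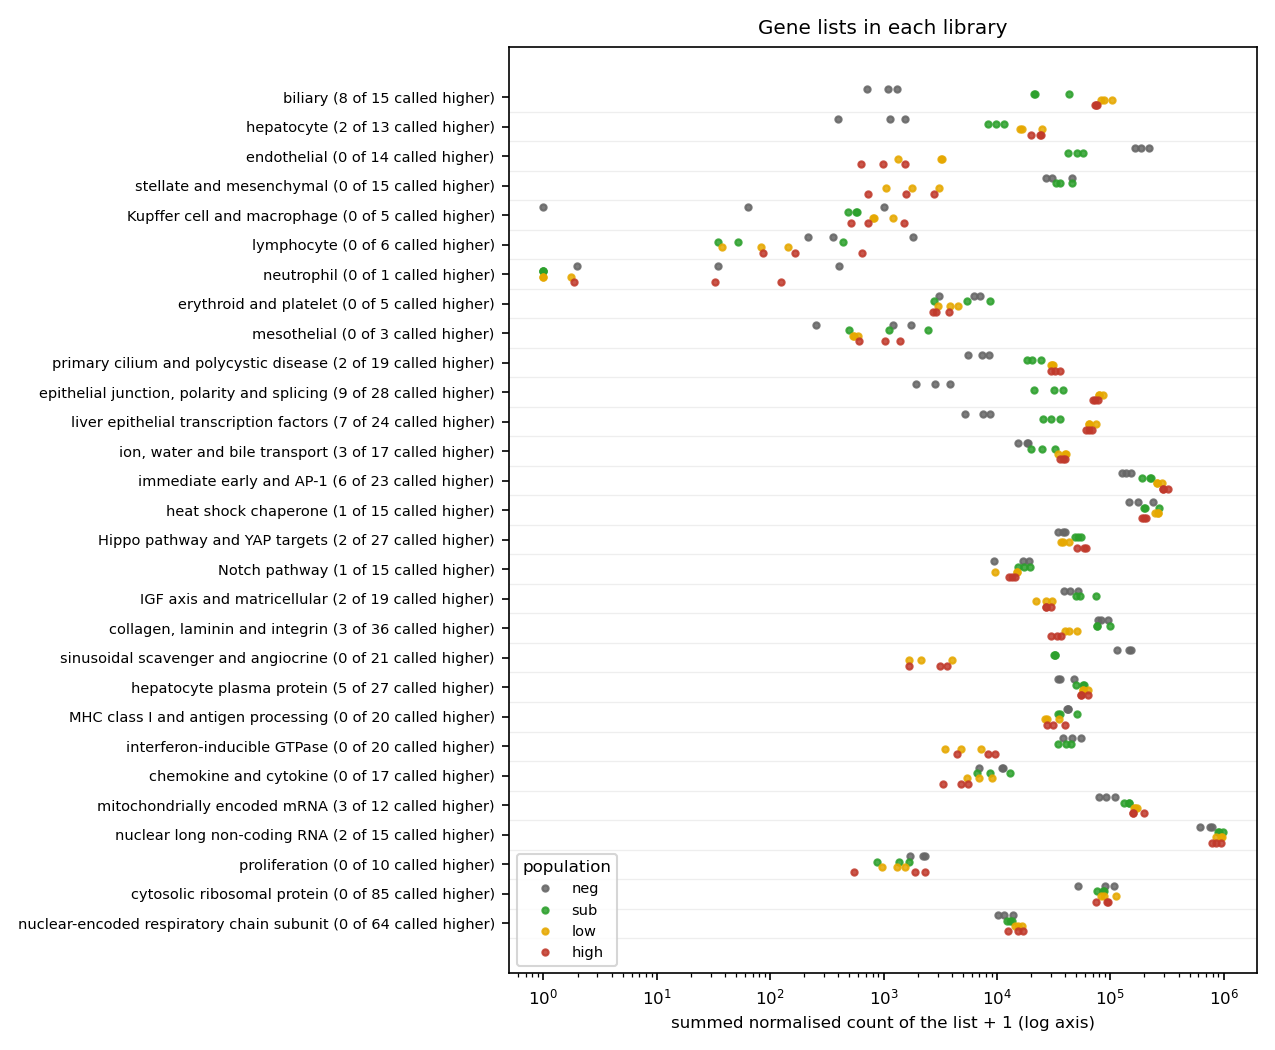
Summed normalised count + 1 on a log axis for each of the 29 gene lists, with 1 point per library and 3 libraries per population; the label gives how many tested members were called higher in sub than in neg. Biliary and junction lists lie well above neg in sub, endothelial and sinusoidal lists lie between neg and low, and stellate and interferon GTPase lists overlap with neg in sub and lie lower in low.

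The level of the called genes in the next brighter gate was set beside that in sub. The contrasts share the sub libraries, so the values are given side by side. Among the rises, 144 of 168 had a higher mean in low than in sub and 24 a lower one. The share of all tested genes with a higher mean in low was not counted. Rises at the floor in neg passed the mean filter through the EGFP-positive gates. In the fit's contrast of low minus sub, where 0.13% of all genes were called higher and 0.614% lower, 8 of the 168 were called higher and 3 lower. Besides the transcripts Gm43305 and Gm48275, the 8 were Chka, Akap13, Alcam, Actb, Actg1 and Fosb. Akap13, an anchor for protein kinase A, was at 4072, 2347 and 3276 in neg, 9579.8, 10317 and 8798 in sub and 21932, 22894 and 21634 in low (log2 fold change low minus sub 1.21 ± 0.20, adjusted p = 0.00593). Alcam, a cell adhesion molecule, was at 729.6, 1097 and 1950.0, 3599, 3775 and 3342 and 12509, 11288 and 8230.3 (log2 fold change low minus sub 1.56 ± 0.35, adjusted p = 0.0442). Both rose at each step without overlap between neighbouring gates, and the sub against neg call of Alcam was kept only without neg replicate 3.

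Utrn, utrophin, which ties actin to the dystroglycan complex, was one of the 3 called lower in low: it was at 8134, 9148 and 8931 in neg, 15245, 24784 and 20079 in sub and 5479, 8107 and 11346 in low (adjusted p = 0.0142 for sub against neg and 0.0138 for low against sub). Its rise in sub lost its call in every fit leaving out 1 sub or neg library (up to 0.187). The others were Gucy1b1 and Col28a1. With Foxf1 and Pdlim3 they made up 4 rises that had at most 3 reads in every neg, low and high library, and these 4 were named after their values were seen. Gucy1b1, the beta subunit of the nitric oxide receptor guanylate cyclase, was at 0.691, 0 and 0 in neg, 961, 368 and 1403 in sub and 0 in all 3 low libraries (adjusted p = 0.0229). Foxf1, a forkhead factor of liver mesenchyme, was at 0 in all 3 neg libraries and 106, 613 and 407 in sub (adjusted p = 0.0401). Col28a1, a beaded-filament collagen, was at 0 in all 3 neg libraries and 531, 272 and 219 in sub (adjusted p = 0.0352), and Pdlim3, a protein of the muscle Z line, at 0 in all 3 neg libraries and 219.6, 315 and 162 (adjusted p = 0.0464). All 4 calls were kept in the 6 fits leaving out 1 sub or neg library. These genes passed the mean filter through their sub values alone, and the other populations added almost no spread to the fits. Keeping the call is therefore weak support, and the share of all genes with this pattern was not counted. EdgeR, whose 10 libraries leave out sub replicate 3, gave adjusted p values of 0.645, 0.687, 0.667 and 0.687. DESeq2 on the same 10 libraries called Gucy1b1 (adjusted p = 0.0103) but not Foxf1, Col28a1 or Pdlim3 (0.0671, 0.0617 and 0.0835). Gucy1a1, the other subunit of the same cyclase, was read in neg at 449.8, 246 and 1321 and in sub at 679, 1388 and 1163 (adjusted p = 0.953), with overlapping libraries.

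**Figure D5:**
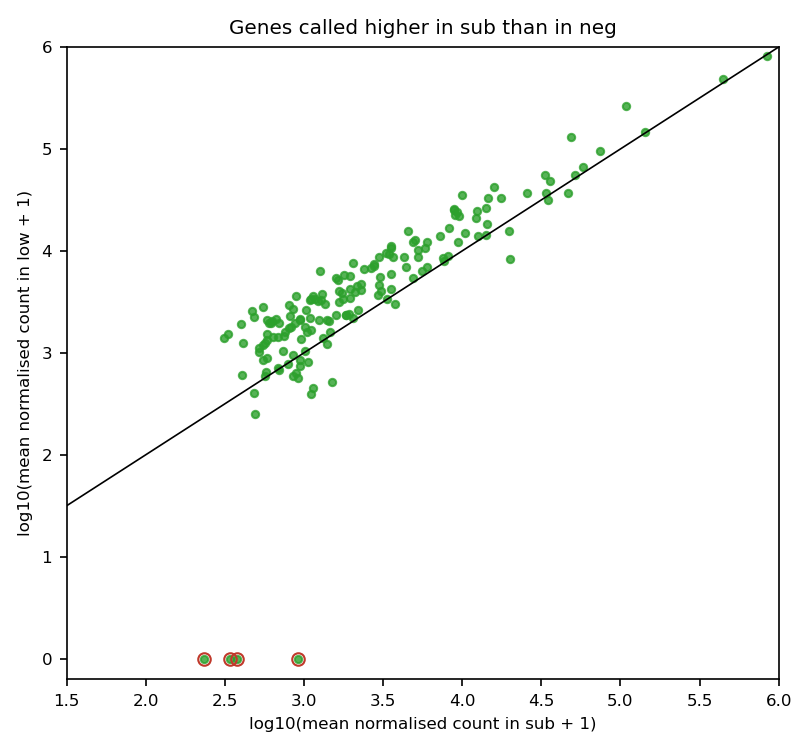
Mean normalised counts, as log10(mean + 1), in sub (x axis) and low (y axis) for the 168 genes called higher in sub than in neg; the line marks equal levels and the 4 circled genes are at the floor in low and high. Most genes, 144 of 168, lie above the line, and the share of all tested genes above it was not counted.

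Of the 24 falls, 12 were at the floor in low and high as well, the 5 abundant ones had a lower mean in low than in sub, and the other 7 a higher one. The share of all tested genes with each of these patterns was not counted. Maf was at 948, 1394 and 841 and Syne1 at 2317, 2241 and 2273 in low, each called lower again (adjusted p = 0.00104 and 0.00307). Got2, the mitochondrial aspartate aminotransferase, was at 482, 226 and 152 in neg, 0, 2.29 and 0 in sub and 389, 585 and 494 in low, and Lnx2, a ubiquitin ligase of the Numb pathway, at 672, 434 and 1449, 0, 1.14 and 0 and 491, 922 and 536. In these 2 genes sub lay below both neighbours, with adjusted p values of 0.0479 and 0.00827 for sub against neg and 0.0382 and 0.0251 for low against sub. Both were chosen after their values were seen. Among the genes unread in all EGFP-positive gates, Chrm2, the M2 muscarinic receptor, was at 234, 353 and 477 in neg (adjusted p = 0.0333) and Gnb4, a G protein beta subunit, at 185, 1073 and 342 (adjusted p = 0.0312). By edgeR their adjusted p values were 0.687 and 0.684, and those of Got2 and Lnx2 0.464 and 0.106.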

How the data were processed

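RNA of 12000 sorted cells per library was extracted, treated with DNase for 30 min and made into libraries with a stranded total-RNA kit for small inputs (SMARTer Pico v2), per the labels' protocols. The values are normalised counts, deposited by the authors as a single table that gives each gene's signal in each of the 12 libraries. Salmon, DESeq2 1.26.0 and mm10 are named in the submitters' processing notes, without their roles; the annotation and the use of strand are not given in the sources used here, so genes overlapping on the other strand cannot be told apart. Every column was matched to 1 sample through its description.

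Genes with a mean of at least 10 over the 12 libraries were transformed to log2(normalised count + 1) and fitted with limma 3.58.1 in R 4.3.3 (variance trend, population as the only term, 12 libraries); p-values are two-sided with Benjamini-Hochberg adjustment over the 16128 genes, and a gene was called at an adjusted p under 0.05. In each library 100% of values were whole multiples of 1 step, within 0.001, so reads were recovered, and those of 10 libraries were tested with edgeR 4.0.16 and DESeq2 1.42.0; sub replicate 3 and high replicate 2, whose step lies near 1, were left out of these count tests only. A population is at the floor for a gene when none of its libraries exceeds 3 reads, and folds against it are lower bounds from 3 reads per library. Reads are not independent molecules, so floors cover counting error only. The fits were tested on simulated data.

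The gene lists, the members and the rule for named genes were chosen with earlier results of these data known. The rule takes, outside the biliary, hepatocyte and endothelial lists, the 10 largest rises and 8 largest falls with a mean of at least 100 and 1 direction in all 3 same-numbered differences, and the 10 largest rises and falls among genes above 3 reads in all 6 libraries. It adds up to 4 called members of each list, or the 2 with the smallest p where none passed, and Sox9. Other genes were named after their values were seen. Some genes that the rule names are not reported here. Sequence identity used GENCODE M21 transcripts, and promoters came from RefSeq for 116 of the 168 rises and 13 of the 24 falls. Alternatives covered pseudocount, filter, scaling, variance model, the replicate block, the tool and each library left out; a limma fit of the 10 libraries of the count tests was added after seeing the data.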

Additional observations from a re-analysis of the deposited data

How the results depend on the processing

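No gene called here was called in the opposite direction by any alternative. The 168 genes higher in sub became 0 when only the 6 compared libraries were fitted and 808 with DESeq2, and ranged from 115 to 230 when 1 of the 12 libraries was left out; in the other alternatives the count stayed within 1.5 times, from 117 with no variance trend to 214 with edgeR. The 24 genes lower in sub were less stable: there were 57 with no variance trend, 7 with array weights, 0 when only those 6 were fitted, 59 by limma on the 10 libraries of the count tests, 41 with edgeR and 844 with DESeq2. Leaving out 1 library gave 32 to 100 lower genes. Without neg replicate 1, 2 or 3 the counts were 87, 100 and 82, and without sub replicate 1, 2 or 3 they were 74, 42 and 70; low and high libraries left out in turn gave 32 to 36. Of the 24, 20 were called by DESeq2 and 5 by edgeR; of the 168, 112 and 139. The cause was not tested.

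With the replicate number as a block, 166 genes were higher and 14 lower, and 158 and 14 of these were among the genes called without it. The numbers were not taken as a pairing: the deviations of same-numbered sub and neg libraries correlated at 0.0195, 0.00222 and 0.0157, all under 0.1. Each sub library nevertheless correlated best with the neg library of its number, and neg replicates 1 and 3 with the sub library of theirs, while neg replicate 2 correlated best with sub replicate 3, at 0.00442. The number stands for an identifier in the descriptions that recurs in all 4 populations, and the labels do not say that it marks an animal.

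Among the named genes, 418 combinations of gene and alternative ended a call, 35 made one and 1884 left the side of the threshold as it was, with 0 changes of sign in a called value. Depth limits genes with few reads: the median SE of the log2 fold change was 2.35 over all tested genes and 1.12 over those above 3 reads in all 6 libraries.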
